A study of Mus musculus with 12 samples.

Results

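The step from hemogenic endothelium 1 (HE1) to hemogenic endothelium 2 (HE2) was followed in mouse cells with the leukaemia fusion RUNX1-EVI1 switched on by doxycycline. The libraries were chosen by their labels alone, the 2 PlusDox HE2 and the 2 PlusDox HE1 libraries of the 12 in the series, and every one of the 35976 gene names in the files was looked up in all 4. RNA came from total RNA libraries that keep the strand. All 12 libraries came from A2lox.cre embryonic stem cells, which accept a transgene at a prepared site, and all carried the doxycycline-inducible RUNX1-EVI1 construct, those without doxycycline included. The cells were differentiated as embryoid bodies, selected for the receptor FLK1 and cultured with VEGF and IL-6. PlusDox cells then received 0.5 µg/ml doxycycline for 18 hours and NoDox cells none, after which HE1, HE2 and hematopoietic progenitors were sorted. Each group had 2 biological replicates. The number of colonies behind the replicates, and the gates of the sort, are not stated in the labels.

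Hemogenic endothelium is the part of the embryonic vessel wall that gives rise to blood cells. In the endothelial-to-haematopoietic transition, flat endothelial cells turn on blood transcription factors and leukocyte surface proteins, lose their cell junctions and matrix attachments and round up, and RUNX1 is required for this. RUNX1-EVI1 arises by a chromosome translocation in myeloid leukaemia and joins the DNA-binding part of RUNX1 to EVI1, a zinc finger transcription factor encoded at the Mecom locus.

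The unit was FPKM, which scales fragments both to the length of the transcript and to the size of the library. Every fold change is a difference of group means on the log2(FPKM + 1) scale, HE2 minus HE1, and it understates the change of genes near 0. A value after ± is the SE. Of the 35976 names, 13316 reached 1 FPKM in at least 2 of the 12 libraries and were tested. A gene was called at a Benjamini-Hochberg adjusted p below 0.05 in limma, whose estimate of spread was pooled over all 6 groups of 2. A call is said to have held if it was kept when each of the 4 PlusDox libraries was left out in turn. The 4 libraries summed to between 477578 and 579055 FPKM, and 11478 to 12174 names reached 1 FPKM. The absolute depth is unknown. The depth relative to the other libraries was inferred from ratios of values under 0.1 FPKM. It came to 1.59 and 0.580 for HE1 replicates 1 and 2, and 1.03 and 0.898 for HE2 replicates 1 and 2. This scale is approximate, as 55 of 66 pairs of libraries fitted it within 0.1 log2. Lars2, Mir6236 and LOC101056014 together took 16.9% of the summed FPKM in HE1 replicate 2 and 8.81% in HE2 replicate 2, against 0.475% and 0.402% in the replicate 1 libraries. Each of the 2 groups thus held 1 library of each kind. Of the 96 genes named by rule, 95 had their pooled direction both between the replicate 1 and between the replicate 2 libraries (the exception was Mecom, which was not called). For the 93 that were called this followed from the choice. In all 1144 called genes both HE2 libraries lay on the same side of both HE1 libraries. The shared direction therefore says nothing about the part of library kind.

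Most genes read slightly higher in HE2. The median fold change over the 13316 tested genes was 0.17, and 67.3% of them lay above 0. As a plain ratio of mean FPKM, over the 13219 genes with a value in both groups, the median was a 1.15-fold excess in HE2. The shift was not equal over the library pairs. The median log2(FPKM + 1) was 3.41 and 3.15 in the HE1 libraries and 3.49 and 3.37 in the HE2 libraries, so that HE1 replicate 2 lay lowest. Against HE1 replicate 2 the 2 HE2 libraries had medians of 0.35 and 0.23, and against HE1 replicate 1 they had 0.11 and −0.02. Genes of at least 100 FPKM shifted most, with a median of 0.30, and genes under 2 FPKM least, at 0.08. The added 1 compresses folds at such low levels, so the 0.08 is not comparable with the rest. At 2 to 5, 5 to 20 and 20 to 100 FPKM the medians were 0.20, 0.19 and 0.18. Rescaling all libraries to the same sum without the 3 features turned the median to −0.01, and centring each library on its median left 0.02. Folds below are on the deposited scale, and are to be read against this median of 0.17.

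**Figure D1:**
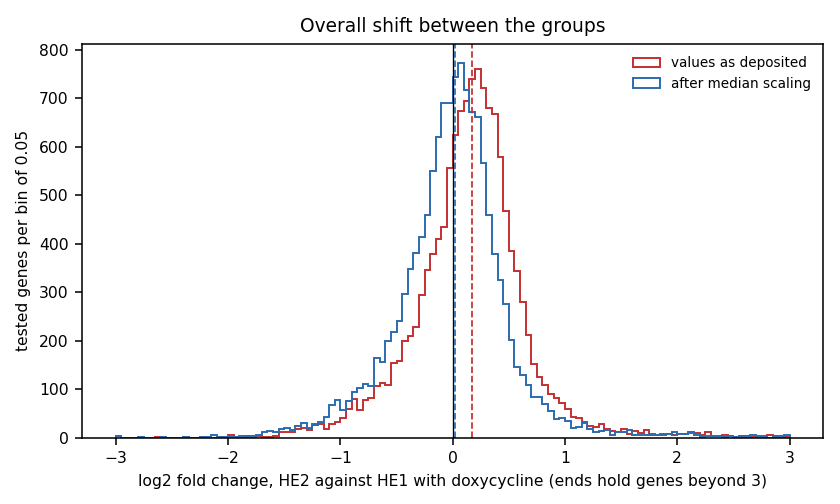
Histogram of the log2 fold change of HE2 against HE1 with doxycycline (x axis, log2(FPKM + 1) scale) over the 13316 tested genes (y axis, genes per bin), from the deposited values in red and after centring each library on its median in blue; dashed lines mark the medians, 0.17 and 0.02. The long right-hand tail, beyond a fold change of 1, remains under both scalings.

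The labels were compared with marker genes. The summed FPKM of 6 endothelial markers was 1380 and 1225 in the HE1 libraries and 1060 and 1022 in the HE2 libraries, and none of the 6 was called. The sum of 6 blood markers went from 56.4 and 33.1 to 371 and 282, with 6 of 6 called higher, and that of 5 erythroid markers from 109 and 79.5 to 1009 and 1528, with 5 of 5 called higher. HE2 thus kept the endothelial markers and carried blood markers beside them. The 5 megakaryocyte markers summed to 25.1 and 10.8 in HE1 and 118 and 53.3 in HE2, with 3 called higher, although Pf4, Gp1bb and Gp9 stayed under 1 FPKM in all 4 libraries. The 5 macrophage markers went from 19.6 and 12.5 to 43.0 and 36.3, with 2 called higher and Adgre1 under 1 FPKM. All 3 mast cell markers stayed under 1 FPKM. The 4 epithelial markers summed to 78.2 and 63.6 in HE1 and 75.2 and 73.4 in HE2, with Epcam and Cdh1 under 1 FPKM and the keratins Krt8 and Krt18 making up the rest, and to between 31.6 and 36.2 in the 4 HE libraries without doxycycline. The 6 smooth muscle and mesenchyme markers summed to 224 and 305 in HE1 and 47.1 and 92.0 in HE2, with Dcn and Lum under 1 FPKM throughout, and the 4 cardiac markers to 5.07 and 6.81 against 1.69 and 2.59. The pluripotency markers Pou5f1, Nanog and Dppa5a were under 1 FPKM in all 4. In such sorted bulk samples, fewer cells of a type and less RNA per cell cannot be told apart, and the part that mixed cell types had in the results below was not tested.

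Blood genes rose and a smaller set of genes fell, among them matrix, contractile and guidance genes. The falls in the smooth muscle and guidance lists did not hold, nor did most of those in the matrix list. The guidance list was written down after the values had been seen. With limma, 1144 of the 13316 tested genes were called (8.59%), of which 759 were higher in HE2 (5.7%) and 385 lower (2.89%). At an unadjusted p below 0.05 there were 3321. Of the called genes, 66.35% were higher. The rises were also larger. A fold change of at least 2 was reached by 119 called rises and 5 called falls, and one of at least 3 by 29 and 1. The balance of direction depended on the scaling. Median scaling called 1840 genes (13.8%), 839 higher (6.3%) and 1001 lower (7.52%), so that 45.6% were higher. Rescaling without the 3 features called 1540 (11.6%), 680 higher (5.11%) and 860 lower (6.46%), or 44.16% higher, and quantile normalization gave 47.8%. Of the 1144 calls, 963 stood in all 3 scalings (582 higher and 381 lower), and 291 held (233 higher and 58 lower), all 291 of which also stood in every scaling. The count was 820, 512, 393 or 642 without HE1 replicate 1, HE1 replicate 2, HE2 replicate 1 or HE2 replicate 2. Both HE2 libraries lay above both HE1 libraries for 5044 genes (37.9%) and below both for 1944 (14.6%). The shares of 5.7% and 2.89% are the background against which the gene lists below are read.

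Both loci whose products make up the fusion were measured, with different outcomes. Runx1 (mm10 chromosome 16, 92601466 to 92826074, protein coding) read 3.99 and 0.993 FPKM in the HE1 libraries and 35.8 and 21.3 FPKM in the HE2 libraries. The groups did not overlap, and the fold change was 3.19 ± 0.57 (limma adjusted p = 0.0054). The call was lost without HE1 replicate 2 (2.52, adjusted p = 0.056). Mecom (chromosome 3, 29951296 to 30509759, protein coding) read 23.0 and 18.1 FPKM in HE1 and 18.4 and 20.2 FPKM in HE2, with overlapping groups and a fold change of −0.08 ± 0.32 (adjusted p = 0.903). Whether RNA of the construct counts toward either gene was not tested, so these values do not measure the induction.

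Among surface proteins often used to sort such cells are the stem cell factor receptor Kit, the angiopoietin receptor Tek and the integrin subunit Itga2b (CD41). Itga2b read 24.2 and 10.5 FPKM in HE1 and 112 and 49.7 FPKM in HE2, a rise of 2.16 ± 0.45 (adjusted p = 0.0124), with both HE2 libraries above both HE1 libraries. The call was lost without HE1 replicate 2 (1.59, adjusted p = 0.112) or HE2 replicate 1 (1.58, 0.109). Kit read 32.2 and 21.3 FPKM in HE1 and 47.8 and 33.0 FPKM in HE2, which did not pass (0.58 ± 0.28, adjusted p = 0.221). Tek stood at 107 and 82.6 FPKM against 84.7 and 80.8 FPKM (−0.18 ± 0.25, 0.669). Whether a gate on these proteins set their values was not tested.

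**Figure D2:**
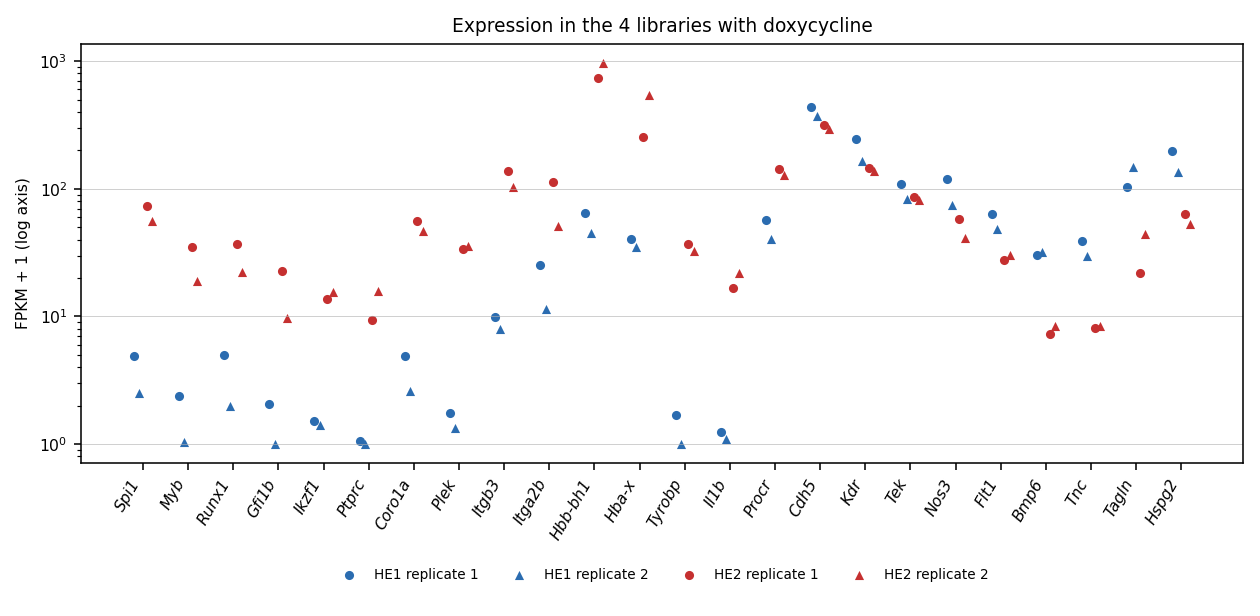
Expression of 24 genes (x axis) in the 4 libraries with doxycycline, as FPKM + 1 on a log axis; blue marks HE1 and red HE2, circles replicate 1 and triangles replicate 2. Blood genes such as Spi1 (3.94 and 1.52 FPKM in HE1, 71.9 and 55.4 FPKM in HE2) separate widely, the endothelial genes Cdh5, Kdr and Tek stay within a narrow band, and Bmp6, Tnc, Tagln and Hspg2 lie lower in HE2.

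The largest rises were leukocyte and red cell genes. Tyrobp (mm10 chromosome 7, 30413782 to 30417582), a signalling adaptor of myeloid receptors, read 0.691 and 0 FPKM in HE1 and 35.8 and 31.5 FPKM in HE2. Its fold change of 4.73 ± 0.28 (adjusted p = 6.5e-06) was the largest among the genes eligible to be named. Plek (chromosome 11, 16971206 to 17008718), a protein kinase C substrate of platelets and leukocytes, went from 0.765 and 0.328 FPKM to 32.7 and 34.6 FPKM (4.50 ± 0.26, adjusted p = 6.2e-06). Both genes were close to silent in HE1 and abundant in both HE2 libraries. The chemokine Ccl9 rose by 4.24 ± 0.32 and the integrin subunit Itgb3, the partner of Itga2b on platelets, by 3.73 ± 0.19. Itgb3 was already present in HE1, at 8.89 and 7.04 FPKM, and reached 136 and 101 FPKM in HE2. The 12 largest rises were picked for large called folds in these same libraries, so that they held is no added support. The promoter of Plek is shown because it belongs to the largest rise with an entry in the RefSeq promoter table (GRCm38.p6, the build mm10). It covers 250 bases before to 50 after the start, chr11:17008669-17008968 on the minus strand, 5′ to 3′, and holds none of the 6 motifs searched for on either strand.
Plek: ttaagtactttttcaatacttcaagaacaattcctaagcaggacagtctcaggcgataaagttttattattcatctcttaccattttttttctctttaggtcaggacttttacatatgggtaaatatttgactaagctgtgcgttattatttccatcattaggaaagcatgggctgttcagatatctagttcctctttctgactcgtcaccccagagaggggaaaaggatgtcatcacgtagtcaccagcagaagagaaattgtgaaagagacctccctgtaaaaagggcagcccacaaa

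Most transcription factors of blood rose. Of 27 tested members of this list, 17 rose and 0 fell, with a median of 1.17 (1.01 with median scaling), against 5.7% higher and a median of 0.17 over all tested genes, and 10 of the 17 calls held. Spi1 (PU.1; chromosome 2, 91082374 to 91115759), a driver of myeloid and B cell fate, read 3.94 and 1.52 FPKM in HE1 and 71.9 and 55.4 FPKM in HE2. Its fold change was 4.19 ± 0.27 (adjusted p = 1.3e-05), the largest of the list. Myb (chromosome 10, 21124930 to 21160984), needed for definitive blood progenitors, went from 1.38 and 0.0363 FPKM to 34.0 and 18.1 FPKM (4.04 ± 0.51, adjusted p = 0.00073). Gfi1b, a repressor that helps to shut down endothelial genes, went from 1.07 and 0 FPKM to 21.9 and 8.75 FPKM (3.38 ± 0.52, adjusted p = 0.0022). Ikzf1, a zinc finger factor of lymphoid and myeloid cells, read 0.524 and 0.419 FPKM in HE1 and 12.7 and 14.4 FPKM in HE2 (3.30 ± 0.22). In both groups replicate 1 had more Spi1, Myb, Runx1 and Gfi1b RNA than replicate 2, while the gap between HE1 and HE2 was wider than that between replicates. Gata1, the master factor of red cells and megakaryocytes (2.93 ± 0.46), Klf1 of red cells (2.06 ± 0.20), Cebpb (2.35 ± 0.23), Ikzf2 (2.22 ± 0.23) and Bcl11a (1.90 ± 0.26) also rose, and their calls held. Tal1 read 35.5 and 25.1 FPKM against 68.4 and 52.2 FPKM (0.98 ± 0.26, adjusted p = 0.0402, and 0.0595 to 0.258 without any of HE1 replicate 2 and the HE2 replicates), and Lmo2 33.0 and 23.2 against 70.7 and 56.9 FPKM (1.17 ± 0.24, 0.0111, and 0.101 and 0.0952 without HE1 replicate 2 or HE2 replicate 1). Gata2, at 24.4 and 16.9 against 24.5 and 16.2 FPKM (−0.03), Fli1 (−0.23) and Erg (−0.10) were not called. The promoter of Myb is shown as that of the largest called rise in this list with a table entry, chr10:21160935-21161234, minus strand. It holds 1 match to the SOX motif ACAAAG, on the opposite strand and in capitals, within the 50 bases after the start.
Myb: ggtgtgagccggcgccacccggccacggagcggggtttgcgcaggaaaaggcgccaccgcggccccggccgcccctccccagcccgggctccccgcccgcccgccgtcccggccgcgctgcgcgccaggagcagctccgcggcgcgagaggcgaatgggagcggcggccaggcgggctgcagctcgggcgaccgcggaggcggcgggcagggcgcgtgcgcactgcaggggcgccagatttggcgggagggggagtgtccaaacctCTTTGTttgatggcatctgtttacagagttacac

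Genes expressed across blood lineages rose in most cases. Of 25 tested members, 21 rose and 0 fell, 25 of 25 folds were positive, the median was 1.55 and 13 calls held. Ptprc (CD45; chromosome 1, 138062859 to 138175756), the phosphatase that marks leukocytes, read 0.0659 and 0 FPKM in HE1 and 8.43 and 14.8 FPKM in HE2 (3.56 ± 0.27, adjusted p = 2.8e-05). Coro1a, an actin regulator of leukocytes, went from 3.92 and 1.61 FPKM to 55.1 and 45.7 FPKM (3.84 ± 0.32). Was, the Wiskott-Aldrich actin nucleation factor, went from 2.79 and 1.49 FPKM to 29.1 and 22.4 FPKM (3.11 ± 0.25). HE1 replicate 1 was the higher of the HE1 libraries for each of these 3, and lay far below both HE2 libraries. Fermt3, which activates integrins in blood cells, rose by 2.95 ± 0.52 but lost its call without HE1 replicate 2 (2.21, adjusted p = 0.0517). The leukocyte formin Fmnl1 (2.77 ± 0.24), the exchange factor Vav1 (2.00 ± 0.23) and the myosin Myo1g (1.71 ± 0.26) rose as well, and their calls held.

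Red cell genes rose, some from near silence and others from clear expression in HE1. Of 26 tested erythroid genes, 22 rose and 0 fell, with a median of 1.61 and 10 calls that held; with median scaling 17 rose and the median was 1.46. Hbb-bh1, an embryonic beta-like globin, read 63.9 and 44.0 FPKM in HE1 and 739 and 967 FPKM in HE2 (3.97 ± 0.28, adjusted p = 1.9e-05). The embryonic globin Hbb-y went from 33.5 and 33.0 FPKM to 471 and 631 FPKM (4.00 ± 0.44). Hba-x, the embryonic alpha-like globin, went from 39.7 and 33.8 FPKM to 252 and 545 FPKM (3.30 ± 0.41). Globin RNA was thus clearly present in HE1, and of the HE2 libraries replicate 2 held more of it, the reverse of the order of Spi1, Myb, Runx1 and Gfi1b. The adult-type globins Hbb-bs (3.56 ± 0.42) and Hba-a1 (3.23 ± 0.43) rose from 3.07 and 1.56 FPKM and from 12.9 and 8.13 FPKM, and their calls held. Near-identical globin copies share reads, so the split between Hba-a1 and Hba-a2 and between Hbb-bs and Hbb-bt is uncertain. Of 15 haem and iron genes 6 rose and 1 fell (median 0.67), and no call held. Alas2, which starts haem synthesis in red cells, read 0.974 and 0.628 FPKM against 2.32 and 3.04 FPKM (1.03 ± 0.22, adjusted p = 0.0146, and 0.105 and 0.0948 without HE1 or HE2 replicate 2). Tfrc, the transferrin receptor, rose by 0.96 ± 0.23 on the deposited scale and in none of the 3 other scalings. Urod (1.08 ± 0.22, 0.0938 and 0.0881 without HE1 replicate 2 or HE2 replicate 1) and Blvrb (1.14 ± 0.22, 0.0776 and 0.0775 without the same 2) rose as well.

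Most megakaryocyte and platelet genes rose, while the platelet chemokine Pf4 did not pass. Of 24 tested, 16 rose and 0 fell, the median was 1.297 and 8 calls held. P2rx1, an ATP-gated channel of platelets, went from 0.926 and 0.346 FPKM to 23.0 and 15.8 FPKM (3.64 ± 0.32, adjusted p = 7e-05). Selp, the adhesion protein P-selectin, read 0.198 and 0.0534 FPKM in HE1 and 6.10 and 4.04 FPKM in HE2 (2.41 ± 0.24). Itgb3, Plek, Clec1b (2.29 ± 0.31), the platelet tubulin Tubb1 (2.02 ± 0.22) and Mmrn1 (1.72 ± 0.28) rose with them. Pf4 read 0.0569 and 0 FPKM in HE1 and 0.600 and 0.289 FPKM in HE2 (0.48 ± 0.33, adjusted p = 0.382).

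Myeloid genes rose in part. Of 16 tested myeloid genes, 10 rose and 0 fell (median 1.21), and 6 calls held. Lyz2, lysozyme of myeloid cells, read 0.190 and 0 FPKM in HE1 and 14.1 and 13.7 FPKM in HE2 (3.77 ± 0.25). Clec7a, the receptor dectin 1 for fungal glucans, rose by 2.85 ± 0.43, and Fcer1g, an Fc receptor adaptor, by 2.58 ± 0.35. Mpo, the peroxidase of neutrophil precursors, reached 3.04 and 1.65 FPKM from 0.196 and 0 FPKM (1.58 ± 0.27, adjusted p = 0.0044, and 0.0505 without HE2 replicate 1). Elane, Ctsg, Ltf, Itgax, S100a8, S100a9, Aif1, Cd33 and Trem2 did not reach the level for testing. Of 24 interferon and inflammation genes 4 were called higher and 0 lower, with a median of 0.33, or 0.17 with median scaling. The list did not move 1 way, as 14 folds were positive and 10 negative. The lowest fold, −1.93, was not called, and with median scaling 4 genes were called higher and 1 lower. Il1b (chromosome 2, 129364569 to 129371164), the cytokine interleukin 1 beta, went from 0.254 and 0.105 FPKM to 15.6 and 21.0 FPKM (4.02 ± 0.39, adjusted p = 0.00013). Ifitm1, an interferon-induced membrane protein, went from 14.1 and 3.77 FPKM to 108 and 81.1 FPKM (3.48 ± 0.45), and the chemokine Ccl3 from 0.127 and 0 FPKM to 5.47 and 5.63 FPKM (2.63 ± 0.34). Ifitm2 rose by 1.01 ± 0.20 (adjusted p = 0.0095, and 0.0876 and 0.0904 without HE1 replicate 2 or HE2 replicate 1). Ifitm3, of the same family, was not called (−0.17 ± 0.25, adjusted p = 0.69). Of 5 tested mast cell and basophil genes 1 rose, the granule proteoglycan Srgn (2.94 ± 0.32), and of 5 lymphoid genes 2 rose. These were Cd79b (1.55 ± 0.27, adjusted p = 0.0563 without HE2 replicate 1) and Ltb (0.82 ± 0.18), whose call was lost without any 1 of the 4 libraries (adjusted p 0.0563 to 0.0925).

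Genes linked to blood stem cells and to EVI1 gave a mixed picture. Of 19 tested stem-cell-associated genes 5 rose and 0 fell, with a median of 0.35, or 0.19 with median scaling, and 3 calls held. Procr, the endothelial protein C receptor, read 55.7 and 39.8 FPKM in HE1 and 143 and 128 FPKM in HE2 (1.50 ± 0.24, adjusted p = 0.0029). Angpt1, the ligand of Tek, went from 0.145 and 0.0849 FPKM to 3.34 and 4.08 FPKM (2.08 ± 0.21), and the homeobox factor Meis1 from 8.53 and 5.71 FPKM to 19.1 and 16.4 FPKM (1.23 ± 0.20). All 4 values of Procr and Meis1 were already above 5 FPKM in HE1, unlike most blood genes. Cd34, at 146 and 167 FPKM against 287 and 373 FPKM, did not pass (1.06 ± 0.32, adjusted p = 0.0613), nor did Ly6a (−0.06 ± 0.27, 0.905). Of 16 tested genes linked to EVI1 4 rose and 0 fell, with a median of 0.23, or 0.08 with median scaling. They were Spi1, Angpt1, Meis1 and Adgrg1 (GPR56), an adhesion receptor, which went from 11.1 and 2.87 FPKM to 85.7 and 40.5 FPKM (3.13 ± 0.52), and all 4 calls held.

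Among the largest falls were signalling, matrix and contractile genes, with Rps16 and the contractile genes described further below. Bmp6 (chromosome 13, 38345716 to 38500314), a bone morphogenetic protein, read 29.4 and 30.8 FPKM in HE1 and 6.35 and 7.35 FPKM in HE2. Its fold change was −1.99 ± 0.21 (adjusted p = 0.00025), and its groups were far apart with replicates close together. Cyp26a1, which degrades retinoic acid, went from 8.41 and 5.59 FPKM to 0.865 and 0.904 FPKM (−2.06 ± 0.26, adjusted p = 0.00071). Tnc, the matrix glycoprotein tenascin C, went from 37.8 and 28.8 FPKM to 7.13 and 7.40 FPKM (−2.04 ± 0.34). Igfbp3, an insulin-like growth factor binding protein (−1.98 ± 0.36), the kinase Nuak1 (−1.83 ± 0.20), the matrix protein Fbln2 (−1.72 ± 0.23) and the heart factor Hand1 (−1.68 ± 0.24) fell as well. The calls from Bmp6 to Hand1 held, but these genes were picked for large called folds in these same libraries. That they held is thus no added support. Gprc5a, an orphan receptor, fell from 31.6 and 20.1 FPKM to 4.19 and 5.10 FPKM (−2.22 ± 0.43), with adjusted p 0.0605 and 0.0606 without the replicate 1 library of HE1 or HE2. The guidance cue Sema3e fell by 1.73 on the log2 scale (adjusted p = 0.0067), or with adjusted p 0.0527 and 0.0598 without HE1 replicate 2 or HE2 replicate 1.

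Rps16, a protein of the small ribosomal subunit, had the lowest fold of the named genes and is an uncertain case. It read 704 and 456 FPKM in HE1 and 49.9 and 37.6 FPKM in HE2 (−3.68 ± 0.78, adjusted p = 0.0136). Leaving out any 1 of the 4 libraries ended the call (adjusted p 0.0519 to 0.0731). The NoDox values were 560 and 95.1 FPKM in HE1 and 739 and 674 FPKM in HE2, so the 2 NoDox HE1 replicates also differed widely. The gene has many processed copies in the genome that can share its reads. Of the 26 tested cytosolic ribosomal protein genes it was the 1 that was called, and 25 of the 26 folds were positive, with a median of 0.48 (0.33 with median scaling). Its promoter, chr7:28350439-28350738 on the plus strand, is that of the largest named fall with a table entry and holds none of the 6 motifs.
Rps16: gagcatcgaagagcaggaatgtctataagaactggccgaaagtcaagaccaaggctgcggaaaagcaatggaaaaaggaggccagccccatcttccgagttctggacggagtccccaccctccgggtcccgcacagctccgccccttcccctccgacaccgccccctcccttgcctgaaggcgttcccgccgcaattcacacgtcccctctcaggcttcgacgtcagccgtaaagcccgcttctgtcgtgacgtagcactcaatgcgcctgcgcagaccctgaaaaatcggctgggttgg

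Matrix, smooth muscle and cardiac mesoderm genes fell in larger shares than the 2.89% of all tested genes. Of 24 extracellular matrix genes 7 fell and 0 rose (median −0.75), or 11 with median scaling, and 2 calls held. Hspg2, the basement membrane proteoglycan perlecan, went from 195 and 135 FPKM to 62.3 and 52.0 FPKM (−1.50 ± 0.22, adjusted p = 0.0016). Lamb1, a laminin chain, went from 52.6 and 50.4 FPKM to 17.8 and 18.7 FPKM (−1.45 ± 0.23). The laminin chains Lama4 (−1.17 ± 0.25) and Lamc1 (−0.96 ± 0.20) and the collagens Col1a1 (−1.23 ± 0.35), Col4a1 and Col5a1 completed the 7, each losing its call in 3 or 4 of the 4 leave-outs (adjusted p 0.0573 to 0.236). Of 16 mesenchymal and smooth muscle genes 7 fell and 1 rose (median −0.80), and the calls of the falls did not hold. Tagln, an actin cross-linker of smooth muscle, read 102 and 147 FPKM in HE1 and 20.9 and 42.8 FPKM in HE2 (−1.99 ± 0.47, adjusted p = 0.0226, and 0.147 and 0.173 without HE1 replicate 2 or HE2 replicate 1). Acta2, smooth muscle actin, read 120 and 157 against 24.8 and 48.2 FPKM (−1.95 ± 0.50, adjusted p = 0.0331, and 0.0738 to 0.216 without any of HE1 replicate 1, HE1 replicate 2 or HE2 replicate 1). In both genes HE2 replicate 2 was the higher HE2 library. Cald1 fell by 1.58 on the log2 scale, and lost its call without the same 2 libraries as Tagln (adjusted p 0.109 and 0.139). Cdh2, N-cadherin, fell from 21.5 and 20.2 FPKM to 6.50 and 9.26 FPKM (−1.31 ± 0.25, 0.081 without HE2 replicate 1). S100a4, a calcium-binding protein that leukocytes also express, was the 1 that rose, from 4.21 and 3.21 FPKM to 19.7 and 26.2 FPKM (2.34 ± 0.38), and its call held. Of 10 cardiac mesoderm genes 4 fell and 1 rose. Hand1 fell from 11.1 and 8.89 FPKM to 2.23 and 2.63 FPKM, with Tbx20 (−1.18 ± 0.25), Nkx2-5 (−0.96 ± 0.22) and Gata6 (−0.81 ± 0.20), each of the last 3 losing its call in 3 leave-outs (adjusted p 0.0532 to 0.155). Mef2c, a factor that blood cells use too, rose by 1.46 ± 0.20 and held.

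Endothelial genes moved little, and mostly downward. Of 31 tested members 2 fell and 1 rose (2.89% and 5.7% of all tested genes), with a median of −0.41 (−0.56 with median scaling) against 0.17 over all tested genes. With median scaling 8 fell. The folds of 27 were negative, and in 19 both HE2 libraries lay below both HE1 libraries, against 14.6% of all tested genes. Cdh5, the junction protein VE-cadherin, read 433 and 374 FPKM in HE1 and 317 and 292 FPKM in HE2 (−0.40 ± 0.26, adjusted p = 0.366). Pecam1 read 334 and 374 against 268 and 279 FPKM (−0.37 ± 0.24, 0.371), and Kdr, the VEGF receptor also called FLK1, 243 and 163 against 145 and 136 FPKM (−0.50 ± 0.30, 0.324). All 3 genes remained highly expressed in HE2, with both HE2 libraries below both HE1 libraries. The calls in this list were weak or ran the other way. Nos3, endothelial nitric oxide synthase, fell from 119 and 73.6 FPKM to 56.7 and 39.9 FPKM (−0.96 ± 0.27, adjusted p = 0.046, and 0.0673 to 0.219 without any of HE1 replicate 1 and the HE2 replicates). Flt1, a decoy receptor for VEGF, fell from 62.6 and 47.6 FPKM to 26.6 and 29.5 FPKM (−0.94 ± 0.26, 0.0482, and 0.0844 to 0.212 without any 1 of the 4). Both also lost their calls without either NoDox HE1 library, which enters through the pooled spread (adjusted p 0.0639 and 0.0640 for Nos3, 0.0525 and 0.0524 for Flt1). Lyve1, a hyaluronan receptor that marks yolk sac endothelium and some macrophages, rose from 3.35 and 2.54 FPKM to 21.9 and 20.5 FPKM (2.50 ± 0.36, adjusted p = 0.0016), and this call held. Nos3 has no promoter shown; that of Flt1, chr5:147725962-147726261 on the minus strand, is shown as the largest called endothelial fall with a table entry. It holds 1 match to the ETS motif GGAAGT, in capitals, which begins 52 bases before the start.
Flt1: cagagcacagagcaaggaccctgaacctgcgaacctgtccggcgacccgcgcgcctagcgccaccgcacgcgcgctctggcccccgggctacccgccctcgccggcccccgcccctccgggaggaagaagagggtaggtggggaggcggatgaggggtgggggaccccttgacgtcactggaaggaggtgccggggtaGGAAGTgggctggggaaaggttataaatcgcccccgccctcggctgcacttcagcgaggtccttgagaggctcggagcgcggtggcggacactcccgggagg

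The related vascular lists held few calls. Of 16 junction and adhesion genes 2 fell, Cdh2 and Nectin2 (−0.88 ± 0.22; median −0.13). Of 19 Notch and arterial genes 2 fell (median −0.20), the receptor Notch4, from 39.0 and 36.3 FPKM to 12.7 and 17.9 FPKM (−1.27 ± 0.35), and the netrin receptor Unc5b (−0.95 ± 0.23). The calls of Nectin2 and Notch4 were lost without any 1 of the 4 libraries (adjusted p 0.0702 to 0.249), and that of Unc5b in 3 of the 4 leave-outs (0.0721 to 0.192). The arterial genes Jag1 (17.9 and 17.1 against 18.0 and 16.8 FPKM) and Hey1 (20.8 and 16.9 against 17.9 and 16.9 FPKM) had the same levels in both groups to within their replicates. Of 8 venous and lymphatic genes 3 fell, Dab2, an endocytic adaptor (−1.60 ± 0.41), the VEGF co-receptor Nrp2 (−0.92 ± 0.18) and the venous factor Nr2f2 (−0.75 ± 0.21), each lost in 3 or 4 leave-outs (adjusted p 0.0541 to 0.171), and Lyve1 rose. Of 14 VEGF, Tie and apelin genes 2 fell, Flt1 and Nrp2, and Angpt1 rose (median −0.48). Of 21 TGF-beta and BMP genes 2 fell, Bmp6 and the latent TGF-beta binding protein Ltbp4 (−0.94 ± 0.24, adjusted p 0.0886 to 0.175 without any of HE1 replicate 1 and the HE2 replicates; median −0.20).

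**Figure D3:**
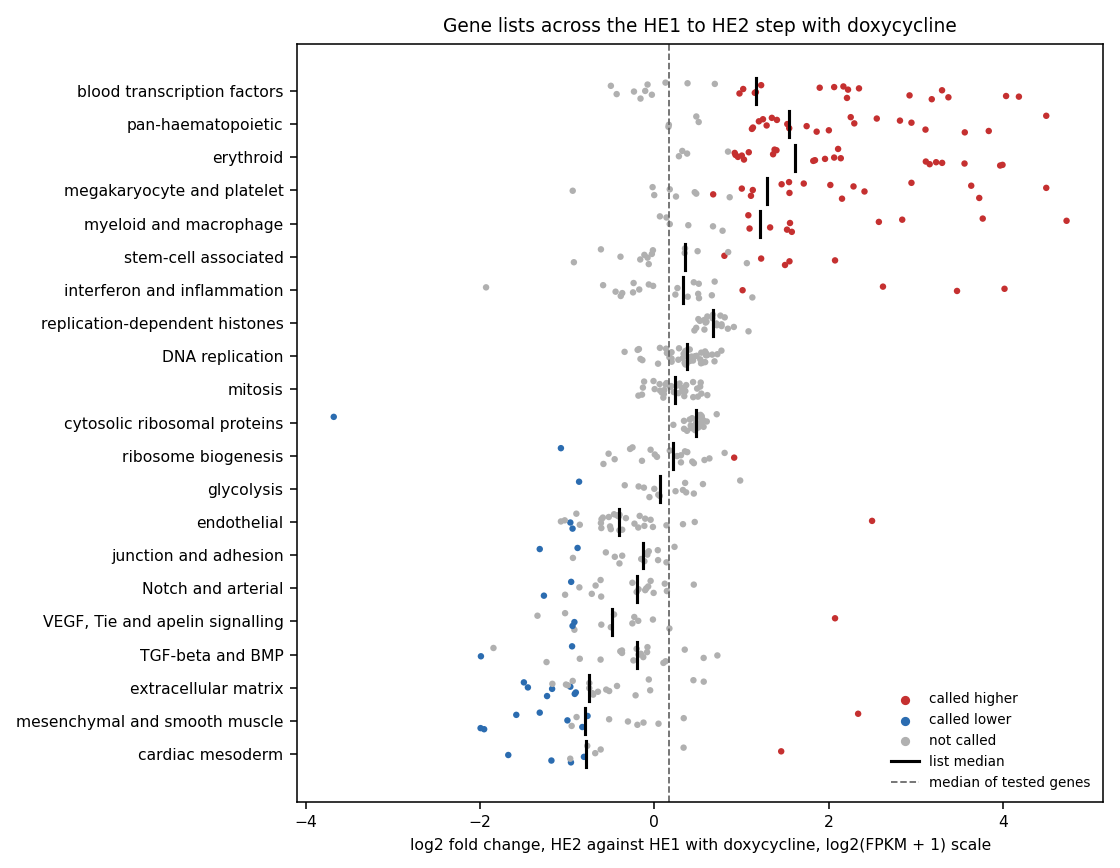
Log2 fold change of HE2 against HE1 with doxycycline (x axis, log2(FPKM + 1) scale) for the tested members of 21 gene lists (y axis), each point a gene, red if called higher, blue if called lower and grey if not called; black bars are list medians and the dashed line is the median of all tested genes, 0.17. The blood lists lie to the right (pan-haematopoietic median 1.55, erythroid 1.61) and the matrix, mesenchymal and cardiac lists to the left (−0.75, −0.80 and −0.79), with the endothelial list between them (−0.41).

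The lists of growth, stress and metabolism genes held 0 to 4 calls each. Limma called 0 of 43 DNA replication genes, with 13 at an unadjusted p below 0.05 and a median of 0.38 (0.22 with median scaling, when 4 rose). It called 0 of 34 mitosis genes, with 7 at an unadjusted p below 0.05 and a median of 0.24 (0.09 with median scaling), and 0 of 20 replication-dependent histone genes, with 4 and a median of 0.67 (0.52). Pcna, the replication clamp, read 106 and 90.4 FPKM in HE1 and 126 and 120 FPKM in HE2 (0.33 ± 0.18, adjusted p = 0.27), and the mitotic kinase Aurka 24.0 and 17.2 against 20.0 and 15.9 FPKM (−0.18 ± 0.22, 0.634). Of 13 genes for D cyclins and inhibitors of cyclin-dependent kinases 2 fell and 1 rose. Ccnd1, cyclin D1, fell from 75.9 and 67.1 FPKM to 24.2 and 24.1 FPKM (−1.52 ± 0.31, adjusted p = 0.0111, and 0.0595, 0.05 and 0.0616 without HE1 replicate 1, HE1 replicate 2 or HE2 replicate 1). The inhibitor Cdkn2b fell from 13.1 and 12.5 FPKM to 4.24 and 5.83 FPKM (−1.21 ± 0.23, 0.0781 without HE2 replicate 1). Cdkn2d rose by 1.00 ± 0.25 (adjusted p 0.219 and 0.241 without HE1 replicate 2 or HE2 replicate 1). Cdkn1c stayed at 24.8 and 19.2 against 24.9 and 18.9 FPKM. Of 22 ribosome biogenesis genes 1 rose and 1 fell, with a median of 0.22, or 0.06 with median scaling. The fall was Myc, a transcription factor of cell growth counted in that list, from 23.1 and 22.7 FPKM to 11.3 and 9.53 FPKM (−1.07 ± 0.22, adjusted p = 0.0115, and 0.0508 to 0.0724 without any of the HE1 replicates or HE2 replicate 2), and the rise Nop10 (0.92 ± 0.25, 0.0869 to 0.266 in the 3 leave-outs that lost it). Of 15 glycolysis genes 1 fell, the glucose transporter Slc2a1 (−0.86 ± 0.23, adjusted p 0.191 and 0.205 without HE1 replicate 1 or HE2 replicate 2), and limma called 0 of 20 respiratory chain genes (median 0.44, 9 at an unadjusted p below 0.05). Of 20 p53 targets Perp (1.13 ± 0.19) and Sesn1 (1.13 ± 0.22; adjusted p 0.0717 and 0.0755 without HE1 replicate 2 or HE2 replicate 1) rose and Tnfrsf10b fell (−0.73 ± 0.20, lost in all 4 leave-outs, 0.0776 to 0.184). Of 13 integrated stress response genes Nupr1 rose (1.62 ± 0.28), and of 18 immediate early genes Nr4a2, Zfp36, Ier3 and Ier5 rose (1.34 down to 0.68), none of whose calls held (adjusted p 0.0539 to 0.177). Of the 3 tested pluripotency genes limma called 0, with 0 at an unadjusted p below 0.05.

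A small set of genes came on from near silence. Under 1 FPKM in both HE1 libraries and at least 5 FPKM in both HE2 libraries were 22 genes, and the reverse held for 1, Cyp26a1. The 22 included Ptprc, Tyrobp, Plek, Lyz2, Il1b, Ikzf1, P2rx1, Srgn, Clec7a, Clec1b, Fcer1g, Ccl3 and Ccl9. They also included the inhibitory receptors Cd200r1 (2.88 ± 0.24) and Lilrb4a (2.84 ± 0.38), Cd200r3 (3.14 ± 0.39), the lymphocyte adaptors Sash3 (2.86 ± 0.23), Traf3ip3 (3.09 ± 0.22) and Pik3ap1 (2.55 ± 0.27), the adhesion receptor Adgrg3 (2.42 ± 0.23) and the potassium channel Kcnj2 (2.69 ± 0.22). Cd200r3 read 0.0940 and 0 FPKM in HE1 and 7.59 and 8.83 FPKM in HE2. These 8 were all called higher in all 3 scalings and held, but the levels that picked them already set a wide gap between the groups. That their calls stood is thus no added support.

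The same step without doxycycline shared no library with the one above. It called 1348 of 13316 genes in limma (10.1%), 755 higher (5.67%) and 593 lower (4.45%), and its median fold change was 0.16. Median scaling called 810 higher and 1262 lower, and rescaling without the 3 features 726 and 1049, so the balance of direction turned over here too. The count fell to 771, 262 or 339 without NoDox HE1 replicate 1, NoDox HE1 replicate 2 or NoDox HE2 replicate 1. The 3 features took 8.99% of the summed FPKM in NoDox HE1 replicate 1 and 0.391% to 0.591% in the other NoDox HE libraries, so library class was not balanced over this step, nor over the difference between the steps. Both steps called 578 genes, 576 of them in the same direction (368 higher and 208 lower), which is 50.35% of the calls with doxycycline and 42.73% of those without. Of the 1144 calls with doxycycline, 1086 had a fold of the same sign without it. Over genes, which are not independent replicates, the fold changes of the steps had a Pearson r of 0.673. The genes called higher with doxycycline had a median of 1.11 with it and 0.74 without it, and those called lower −1.005 and −0.85. As these genes were picked on the first value of each pair, the smaller second value is a description only.

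**Figure D4:**
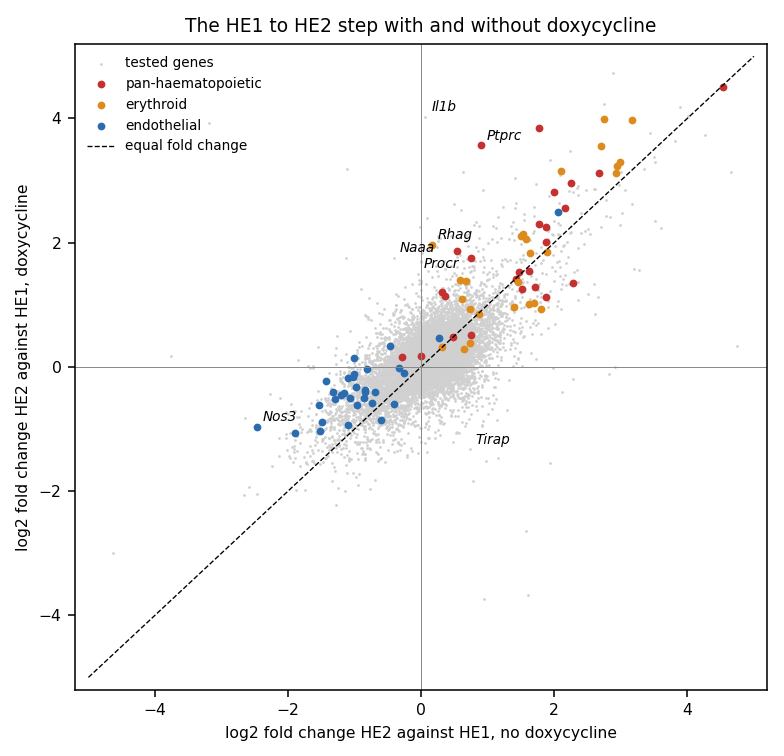
Log2 fold change of HE2 against HE1 with doxycycline (y axis) against the same without doxycycline (x axis) for the 13316 tested genes in grey, with pan-haematopoietic genes in red, erythroid in orange and endothelial in blue; the dashed line marks equal folds. Blood genes lie at the upper right in both steps, Il1b (4.02 against 0.06) and Ptprc (3.56 against 0.89) lie above the line, and endothelial genes lie further left than down (medians −1.002 without and −0.41 with doxycycline).

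The test of the difference between the steps called 6 genes (0.0451%), 5 with a larger fold with doxycycline (0.0375%) and 1 with a smaller one (0.00751%), each at an adjusted p of 0.0397 in limma, and 892 had an unadjusted p below 0.05. Il1b stayed at or near 0 without doxycycline, at 0 and 0.0293 FPKM in HE1 and 0.0877 and 0.0345 FPKM in HE2, and differed by 3.96 ± 0.55. Ptprc, at 0 and 0 FPKM and then 0.590 and 1.17 FPKM without doxycycline, differed by 2.67 ± 0.38. Naaa, a lysosomal amidase of fatty acid amides, went from 1.33 and 1.44 FPKM to 7.55 and 6.58 FPKM with doxycycline (1.75 ± 0.20), and from 0.646 and 0.850 FPKM to 0.230 and 0.414 FPKM without, a difference of 2.16 ± 0.29. Tirap (chromosome 9, 35184391 to 35200291), an adaptor of Toll-like receptors, ran in opposite directions. It fell from 15.0 and 12.6 FPKM to 4.96 and 4.77 FPKM with doxycycline (−1.33 ± 0.19) and rose from 3.59 and 4.68 FPKM to 7.01 and 7.95 FPKM without it (0.73 ± 0.19), a difference of −2.06 ± 0.27. The remaining 2, named after their values were seen, were the red cell ammonium channel Rhag, at 0.0435 and 0.120 FPKM then 3.09 and 3.33 FPKM with doxycycline (difference 1.80 ± 0.26), and Ctsj, a cathepsin, at 0.0503 and 0 FPKM then 2.19 and 2.41 FPKM (1.69 ± 0.24) and listed at 0 in all 4 libraries without. Leaving out any 1 of the 8 libraries of the 2 steps ended most of these calls (0 to 4 called genes in all), and median scaling left 1, Tirap, as did a term for library class.

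For the endothelial genes the steps looked different in counts, while the test of each gene called 0 differences. The list as a whole was not tested. Without doxycycline 15 of 31 fell and 1 rose, with a median of −1.002, against 2 and 1 and a median of −0.41 with it. Limma called 0 of the 31 differences, 6 had an unadjusted p below 0.05 (6.70% of all tested genes did), and 29 were positive, against 54.15% of all tested genes. Nos3 fell by 0.96 with and by 2.47 without doxycycline (difference 1.51 ± 0.38, adjusted p = 0.274), and Ramp2, a co-receptor of vascular peptides, read 405 and 313 then 341 and 271 FPKM with and 518 and 617 then 175 and 249 FPKM without doxycycline (difference 1.21 ± 0.31, 0.302). Procr, at 27.6 and 35.1 then 23.9 and 37.7 FPKM without doxycycline (−0.05), differed by 1.55 ± 0.34 (0.197). In the other direction, all 22 differences of the ribosome biogenesis genes were negative (median −0.52, 8 at an unadjusted p below 0.05, 0 called), with 7 genes called higher without doxycycline against 1 with it. Myc read 16.9 and 19.4 then 29.9 and 23.6 FPKM without doxycycline, a difference of −1.60 ± 0.31 (adjusted p = 0.138).

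Promoter letters were compared as a description, with no test. Of the tested genes 9683 had an entry in the RefSeq table, including 602 called higher and 267 called lower, and matches on either strand were counted in the 300 bases. The GATA motif AGATAA was in 10.3% of promoters of genes called higher, 4.87% of those called lower and 6.38% of all. The RUNX motif TGTGGT was in 14.8%, 11.2% and 12.4%, and the E-box CAGCTG in 17.3%, 15.4% and 14.5%. The ETS motif GGAAGT was in 29.9%, 15.7% and 28.7%, the SOX motif ACAAAG in 13.3%, 12% and 13.5%, and the AP-1 motif TGAGTCA in 3.99%, 2.25% and 3.41%. The median GC content was 58.3% in promoters of genes called higher, 65% in those called lower and 61% in all, and its part in these shares was not tested.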

How the data were processed

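RNA-seq libraries of 6 groups with 2 biological replicates each were analysed, and the groups were taken from the sample labels. The tools named in the submitters' processing notes are StringTie 1.3.3, Trimmomatic 0.32 and HISAT2 2.1.0, and the build named there is mm10. The deposited per-library tables give a gene name and a value without a named unit; the values were read as FPKM made by the authors, an inference from their sums and from StringTie's output. Rows with a repeated name were summed. Names reaching 1 FPKM in at least 2 of the 12 libraries were kept, a pseudocount of 1 was added, and log2 values were fitted with limma 3.58.1 (trend, R 4.3.3) on 6 group means, so that p-values rest on the spread of 2 biological replicates pooled over the groups. Adjusted p-values are Benjamini-Hochberg values over all 13316 tested genes, and every adjusted p in the report is limma's.

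The comparison, its members and the gene lists were chosen with earlier results of these data known. The naming rule took Runx1, Mecom, Kit, Tek and Itga2b, the 12 largest called rises and 12 largest called falls, up to 5 called genes per list, and the called differences between the steps, with minimum levels for each. Named outside it, after their values were seen, were uncalled list members such as Cdh5, Pecam1, Kdr, Cd34, Pf4 and Pcna, weaker called members that completed a list, and the genes that came on from near silence. In a simulated version of the comparison with doxycycline, on 13316 genes with 200 changed, the test recovered 59% of the genes changed 2-fold and 96% of those changed 4-fold, with 0 of wrong sign and 8 false calls. The simulated noise was independent between libraries, with no effect of library class or replicate. The changed genes were drawn from those with a mean level of at least 5 FPKM. These figures therefore do not give the recovery or false calls in the real libraries. Alternatives changed the pseudocount, the filter, the scaling, the libraries fitted, the replicate block and a term for library class. Hematopoietic progenitor libraries entered the pooled spread, the filter that chose the tested genes, the alternative scalings and the scale of relative depth. In the reported fit they entered none of the group means compared. Promoters came from a RefSeq table of GRCm38.p6. Some genes and 1 gene list are not reported here, though counts over lists include them.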

Additional observations from a re-analysis of the deposited data

Results flagged for a closer look

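For 4 genes the change from HE1 to HE2 differed with and without doxycycline in a test of the difference itself. The differences, with doxycycline minus without, were 3.96 for Il1b, 2.67 for Ptprc, 2.16 for Naaa and −2.06 for Tirap on the log2(FPKM + 1) scale, each at a limma adjusted p of 0.0397. Ptprc and Il1b reached at most 1.17 and 0.0877 FPKM in the HE2 libraries without doxycycline. Tirap moved in opposite directions in the 2 steps. Leaving out any 1 of the 8 libraries ended all 4 calls, except that Ptprc kept its call without PlusDox HE2 replicate 1 (adjusted p = 0.0239). With median scaling Tirap alone of the 4 was called (adjusted p = 0.00709). A pseudocount of 0.1 left 0 called differences in limma.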

How the results depend on the processing

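With doxycycline the main 1144 called genes became 1840 with median scaling, 2048 with quantile normalization, 2420 with the replicate block, 2354 with a term for library class and 629 when only the 4 PlusDox HE1 and HE2 libraries were fitted. The genes called higher became 1692, 1727 and 418 under the last 3, and the genes called lower 241 with a pseudocount of 0.1, 1001 with median scaling, 1069 with quantile normalization, 860 when rescaled without the 3 features, 728 with the replicate block, 627 with the class term and 211 with 4 libraries. Without doxycycline the 1348 became 833 with no filter, 2072 with median scaling, 2122 with quantile normalization and 3126 with the replicate block. The 6 called differences became 0 with a pseudocount of 0.1 (limma; 892 at an unadjusted p below 0.05 in the reported fit), 1 with median scaling, 10 with quantile normalization, 2 when rescaled, 47 with the replicate block, 1 with the class term and 2 with only the 8 HE1 and HE2 libraries. The overall shift became −0.0128 when rescaled. Leaving out 1 library gave 393 to 1137 called genes with doxycycline (277 to 721 higher, 104 to 416 lower), 262 to 1424 without doxycycline, 0 to 4 differences and a shift of 0.0516 to 0.289. Mecom ran from −0.24 to 0.087 and Tek from −0.37 to 0.0018, each highest without PlusDox HE1 replicate 1. Libraries outside the comparison enter through the pooled spread: without either NoDox HE1 library Nos3, Flt1, Notch4, Tnfrsf10b, Col1a1, Slc2a1 and Nop10 lost their calls with doxycycline (limma adjusted p 0.0524 to 0.0654), and without either NoDox HE2 library Tnfrsf10b and Col1a1 did (0.0510 to 0.0514). The cause of these changes was not tested.

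The labels do not say that a replicate number marks a shared batch. Replicate differences correlated over genes at 0.5 between PlusDox HE1 and HE2 and at −0.1 to 0.526 over all pairs of groups, and the block kept all 1144 calls. With 2 replicates and absolute depth unknown, values under 1 FPKM are imprecise.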

Other observations

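Further gene groups, written down after the values had been seen and so described without support from their choice, add detail to the step with doxycycline. Their counts are to be read against the 5.7% of all tested genes called higher and 2.89% called lower, and a median of 0.17. Of 11 tested enzymes of arachidonate and eicosanoid metabolism 5 rose and 0 fell, with a median of 1.09. Pla2g4a, the phospholipase that releases arachidonate, read 1.28 and 0.998 FPKM in HE1 and 17.0 and 18.5 FPKM in HE2 (3.13 ± 0.26). Alox5ap, the partner protein of 5-lipoxygenase, went from 10.0 and 4.04 FPKM to 63.8 and 47.4 FPKM (2.91 ± 0.32). Alox5 (1.97 ± 0.29), the cyclooxygenase Ptgs1 (2.34 ± 0.30) and the thromboxane synthase Tbxas1 (1.90 ± 0.21) rose too, and all 5 calls held when each library was left out. Tbxas1 stayed between 0 and 0.114 FPKM without doxycycline, and its difference between the steps did not pass (1.79 ± 0.30, limma adjusted p = 0.0706). Of 27 immune adaptors and kinases 17 rose and 0 fell (median 0.97), or 16 and 0 with median scaling (median 0.82), and not all 17 calls held. Among them were Plcg2, a phospholipase of receptor signalling, from 35.5 and 27.0 FPKM to 120 and 91.4 FPKM (1.72 ± 0.23), and Grap2 (1.97 ± 0.29).

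Integrins went in both directions, with 6 rises and 2 falls among 17. The falls were the subunits of vitronectin receptors, Itgav, from 28.8 and 33.9 FPKM to 8.91 and 12.7 FPKM (−1.47 ± 0.23), and Itgb5 (−1.03 ± 0.21, limma adjusted p 0.0546 to 0.0702 without HE1 replicate 1 or either HE2 replicate), while their relative Itgb3 rose by 3.73. Of 22 semaphorin, ephrin and guidance genes 7 fell and 0 rose (median −0.45), with no call that held, among them the receptor Epha2 (−1.29 ± 0.25, 0.0509 without HE2 replicate 1). Of 14 tested Hox genes 6 fell, from −1.04 for Hoxb6 to −0.70 for Hoxb8, and Hoxd1 rose by 1.22; none of these calls held, and the 6 that fell read between 0.740 and 6.30 FPKM in HE1. Of 21 red cell membrane and antioxidant genes 14 rose and 0 fell (median 1.00), led by the carbonic anhydrase Car2, from 19.0 and 11.7 FPKM to 107 and 116 FPKM (2.82 ± 0.25). With median scaling 10 of this list rose and the median was 0.85, and most of the 14 calls did not hold. Of 27 cytokine receptors 9 rose and 2 fell (9 and 3 with median scaling), and most of these calls did not hold. Of 23 lysosome and granule genes 8 rose and 0 fell (8 and 2 with median scaling). Of 23 purine, lipid and chemokine genes 8 rose and 1 fell (6 and 1 with median scaling). Of 22 Wnt and retinoic acid genes 3 rose and 4 fell (3 and 6 with median scaling).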
